A study of Homo sapiens with 9 samples.

Results

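Reads over the gene segments of the T-cell receptor were measured in ALL-SIL, an established cell line from T-cell acute lymphoblastic leukaemia, after siRNA against the transcription factor TLX1. The 57 members were chosen by their measured level: each has the annotation type of a T-cell receptor V, D, J or C segment and at least 10 sense-strand reads summed over all 9 libraries. They are 57 of 195 such segments listed in the files, which hold 58096 gene IDs. The level that chose them is given below as a description only. The V segments TRBV5-1, TRBV6-8 and TRBV30 lay just inside the minimum with 10 reads each. Just outside it lay TRGV1 and TRBV10-2 with 8 reads each and TRBJ1-6 with 6.

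A T-cell receptor is a pair of chains, either alpha with beta or gamma with delta. The genes of these chains are assembled in the thymus, where the RAG recombinase joins one V segment, one J segment and, in the beta and delta chains, D segments, and where splicing then links the joined exon to a C segment. V and J segments supply the part that meets antigen, and C segments supply the part that anchors the chain and pairs with CD3 proteins. The delta locus (TRD) lies inside the alpha locus (TRA) on chromosome 14, so that joining within TRA removes TRD from that chromosome. The beta (TRB) and gamma (TRG) loci lie apart from each other on chromosome 7. Segments can also be transcribed before they are joined, and a count of reads over a segment does not show which segments are joined.

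The study compared 3 groups of 3 libraries each, from total RNA depleted of ribosomal RNA and taken 24 h after electroporation. One group received a non-targeting scrambled siRNA, labelled with a dose of 400 nM, and the others received s46 or s47, siRNAs against TLX1 whose labels give no dose. All groups are the same single cell line, no label says that replicates were separate cultures, and p-values may therefore reflect technical spread only. TLX1, the targeted homeobox gene, was at 198.1, 188.2 and 171.3 CPM (sense reads per 1e6) in scrambled replicates 1 to 3, at 63.7, 87.3 and 78.7 with s46 and at 63.5, 73.7 and 75.0 with s47. Its log2 fold change for both siRNAs together was -1.34 ± 0.11 (SE), with an edgeR adjusted p of 0.000394. CPM are taken after scaling of libraries by TMM, and the fold change is the mean of s46 and s47 against scrambled. Depth ranged from 21134650 to 33393740 sense gene reads per library. Scrambled replicate 1 was the shallowest library and stood apart from the other 8, with 14.4% of its reads multimapping against 6.36% to 7.34%. Several segment levels below are lowest or highest in that library, and the part it has in each difference was not tested beyond the values given without it. Of the T-lineage markers CD3D, CD3E, CD3G, CD247, CD7, CD2, CD5, CD28, LCK and ZAP70, all 10 were tested and 0 were called by edgeR or DESeq2. At an unadjusted edgeR p under 0.05, 4 passed (CD3D, CD3E, CD7 and CD2), beside 17.8% of all genes tested. Directions were mixed: of all 10 markers, 4 had a log2 fold change above 0 and 6 below it. Summed markers of myeloid, erythroid and natural killer cells stayed at or below 0.332, 0.0896 and 0.153 CPM, and the B-cell list, mostly CD79A and CD79B, summed to 10.4 to 14.8 CPM.

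The 57 members were spread unevenly over the 4 loci. TRB had 31 members of 66 annotated segments, TRA 10 of 102, TRG 9 of 16 and TRD 7 of 11. By class, 40 were V, 11 were J and 6 were C segments, and no D segment reached the minimum. The 138 segments below the minimum held 98 reads in all, and 102 of them were at 0. By reads, the order of loci was different. Of 357804 reads over all members, TRG held 44.6%, TRD 37.7%, TRB 16.01% and TRA 1.71%. C segments held 83.9% of the reads, V segments 14.0% and J segments 2.07%. The larger part of these reads therefore came from the gamma and delta constant genes.

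The 6 C segments span more than 3 orders of magnitude in level. TRDC, the delta constant gene, was at 448, 537 and 416 CPM with scrambled siRNA, at 537, 500.3 and 476 with s46 and at 549.5, 472 and 481 with s47. These ranges overlap, and in bulk RNA fewer cells that use a gene and less RNA per cell cannot be told apart. The log2 fold change was 0.11 ± 0.11 (SE), with an edgeR adjusted p of 0.63. TRGC2, the second gamma constant gene, was at 245, 555 and 521 CPM with scrambled siRNA, at 402, 517 and 550.1 with s46 and at 410.3, 477 and 534 with s47. Scrambled replicate 1 was the lowest of the 9 libraries for it, and the log2 fold change of 0.13 ± 0.22 (SE; edgeR adjusted p 0.775) became -0.16 without that library. TRBC2, the second beta constant gene, was at 82.0, 108 and 122 CPM with scrambled siRNA, at 107, 122 and 145 with s46 and at 111, 122 and 145 with s47. Its siRNA means of 125 ± 19.1 and 126 ± 17.3 (SD, n = 3 each) stood against 104 ± 20.5 (SD, n = 3), and the log2 fold change of 0.27 ± 0.15 (SE) did not pass the test (edgeR adjusted p 0.344). TRGC1 ranged from 53.6 to 93.4 CPM and TRBC1 from 6.57 to 11.8, with overlapping groups and log2 fold changes of -0.0021 and 0.18. TRAC, the only alpha constant gene, had 20 reads over all 9 libraries, between 0 and 0.209 CPM, and was too low to be tested. TRDC, its counterpart in the nested delta locus, had 125516 reads.

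**Figure D1:**
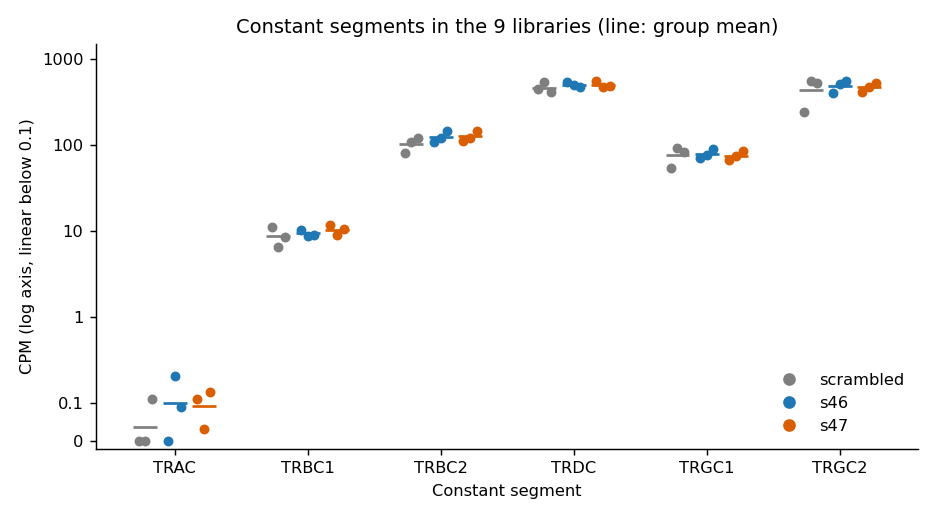
CPM of the 6 constant segments in each library (points, log axis that is linear below 0.1) with group means (lines), for scrambled, s46 and s47. TRDC and TRGC2 lie highest, TRAC lies at or below 0.209 CPM, and the 3 groups overlap for every segment shown.

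Each of TRB and TRG has a pair of similar C genes, and in both pairs the second was the more abundant. Per kilobase of exon, TRBC2 exceeded TRBC1 by a median of 13.9 times over the libraries (range 7.42 to 16.5). TRGC2 exceeded TRGC1 by a median of 16.7 times (range 12.3 to 18.4). The gamma ratio depends on unequal annotated exon lengths, 2730 bases for TRGC1 and 1013 for TRGC2, against 760 for TRBC1 and 758 for TRBC2. In reads without length, TRGC2 had 121747 and TRGC1 19861, and TRBC2 had 30652 and TRBC1 2411. The first 60 coding bases of each pair, from GENCODE 29 transcripts on GRCh38, show how little separates the copies, with the bases that differ within a pair in capitals. The beta genes lie on the plus strand at chr7:142791694-142791753 and chr7:142801041-142801100, and the gamma genes on the minus strand at chr7:38265619-38265678 and chr7:38249513-38249572.
TRBC1: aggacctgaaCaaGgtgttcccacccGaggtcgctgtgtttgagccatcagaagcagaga
TRBC2: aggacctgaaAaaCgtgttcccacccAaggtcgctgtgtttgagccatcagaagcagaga
TRGC1: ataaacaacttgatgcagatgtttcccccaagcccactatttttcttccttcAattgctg
TRGC2: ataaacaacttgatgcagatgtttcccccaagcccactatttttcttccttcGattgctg
The beta pair differs at 3 of these 60 positions and the gamma pair at 1. Of the 40-base words in the TRBC2 transcript, 29.2% also stand in that of TRBC1, and 53.6% of those of TRGC2 stand in TRGC1. A read that fits both copies is listed as multimapping in the deposited files, apart from the genes, so the levels of these 4 genes are uncertain by the reads not assigned. Over all members, 30 share no such word with another gene's transcript and 27 share some.

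V members differed strongly within each locus, with 1 or 2 of them holding most reads of the V members. Shares of V reads, here and for TRB, are shares of the reads over V members and leave out pseudogene segments. The gamma V pseudogene TRGV7, outside the rule and described at the end, had more sense reads than TRGV9. Among TRG members, TRGV9 held 94.5% of V reads, at 56.0 ± 21.6 CPM with scrambled siRNA, 68.3 ± 10.03 with s46 and 64.9 ± 7.70 with s47 (SD, n = 3 each). Its lowest library was scrambled replicate 1 at 31.3 CPM, and the groups overlapped. In TRD, TRDV2 held 78.2% and TRDV1 21.4% of V reads. TRDV2 was at 7.13, 13.7 and 13.3 CPM with scrambled siRNA, at 11.4, 14.3 and 10.98 with s46 and at 15.2, 13.6 and 12.6 with s47. TRDV1, which lies among the alpha V segments, ranged from 1.75 to 4.72 CPM, and both of these extremes were scrambled libraries. TRDV3, which lies beyond TRDC on the other strand, had 17 reads. In TRA, TRAV30 held 72.9% and TRAV22 22.4% of V reads. TRAV30 was at 11.5, 18.8 and 23.1 CPM with scrambled siRNA, at 15.8, 15.3 and 17.2 with s46 and at 17.6, 17.2 and 18.9 with s47, so the scrambled group held both the lowest and the highest library. TRAV24 and TRAV21, next in level, had 103 and 62 reads.

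The 9 TRAV members lay close together on the chromosome. In the order of the 45 annotated TRAV segments, 18 lay before the first member (TRAV14DV4) and held 0 reads. The 9 members were among the 19 segments from TRAV14DV4 to TRAV30, at chr14:21924063-22168988, and the 8 segments after TRAV30 held 7 reads. This stretch also holds TRDV1.

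In TRB, TRBV7-9 held 43.2% and TRBV18 41.4% of V reads. TRBV7-9 was at 23.9, 33.7 and 35.8 CPM with scrambled siRNA, at 31.5, 39.5 and 49.1 with s46 and at 38.9, 38.4 and 47.2 with s47. Only s46 replicate 1 lay among the scrambled values, and the log2 fold change was 0.39 ± 0.16 (SE; edgeR adjusted p 0.256). TRBV18 was steadier, with 33.9 ± 2.43 CPM with scrambled siRNA, 37.5 ± 2.45 with s46 and 37.8 ± 1.94 with s47 (SD, n = 3 each) and a log2 fold change of 0.15. TRBV7-2 and TRBV9 followed with 908 and 767 reads.

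TRBV7-2 was the one segment called, and it was already named as the marker of this group from an earlier result of these data, so its values are a description and not independent support. It lies at chr7:142352819-142353358 (plus strand, GRCh38), between TRBV6-2 and TRBV6-4 among the members. Its level was 1.48, 1.79 and 1.98 CPM with scrambled siRNA, 3.66, 4.24 and 5.28 with s46 and 3.82, 4.20 and 4.69 with s47. Every siRNA library lay above every scrambled library. The log2 fold change for both siRNAs together was 1.30 ± 0.21 (SE; edgeR adjusted p 0.0155, over all genes tested), with 1.32 for s46 (edgeR adjusted p 0.0492) and 1.27 for s47 (edgeR adjusted p 0.0458). The adjusted p for both siRNAs together was 0.0669 without scrambled replicate 3, and those of the single siRNAs lie close to the threshold of 0.05 and crossed it under many settings. The difference between s46 and s47 was 0.05 ± 0.22 (SE) on the log2 scale. As a share of the reads over all TRBV members, which does not depend on the scaling of libraries, TRBV7-2 went from 2.32% ± 0.11 with scrambled siRNA to 4.77% ± 0.29 with s46 and 4.43% ± 0.155 with s47 (SD, n = 3 each).

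The TRBV7 family is a set of related beta V segments, and 5 of them were members. The last 150 coding bases of 3 of them are shown. Over 347 coding bases, TRBV7-3 and TRBV7-9 are the tested relatives nearest to and farthest from TRBV7-2. The stretches shown are from GENCODE 29 on the plus strand of GRCh38, at chr7:142353209-142353358, chr7:142384692-142384841 and chr7:142529613-142529762, with bases that differ from TRBV7-2 in capitals.
TRBV7-2: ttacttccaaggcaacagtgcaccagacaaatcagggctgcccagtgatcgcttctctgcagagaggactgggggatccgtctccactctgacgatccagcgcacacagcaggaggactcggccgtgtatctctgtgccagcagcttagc
TRBV7-3: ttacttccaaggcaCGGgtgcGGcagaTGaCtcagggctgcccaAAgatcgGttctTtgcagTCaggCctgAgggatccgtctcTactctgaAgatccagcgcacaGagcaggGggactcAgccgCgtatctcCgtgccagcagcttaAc
TRBV7-9: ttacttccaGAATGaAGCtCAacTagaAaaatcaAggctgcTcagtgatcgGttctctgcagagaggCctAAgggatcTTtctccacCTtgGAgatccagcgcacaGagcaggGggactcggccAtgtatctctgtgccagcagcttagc
Over 347 coding bases TRBV7-3 is 89.3% identical to TRBV7-2, TRBV7-4 83.6%, TRBV7-7 83.0% and TRBV7-9 81.6%. Within the last 150 bases, TRBV7-3 differs from TRBV7-2 at 24 positions and TRBV7-9 at 27. TRBV7-4 and TRBV7-7, not shown, differ there at 22 each, so TRBV7-3 is not the nearest within this stretch. Of the 40-base words of the TRBV7-2 transcript, 6.20% also stand in TRBV7-1 or TRBV7-3. TRBV7-3 was at 1.75, 1.96 and 1.95 CPM with scrambled siRNA, at 1.75, 2.71 and 2.56 with s46 and at 2.77, 2.74 and 2.89 with s47. Its log2 fold change of 0.44 ± 0.22 (SE; edgeR adjusted p 0.301) did not pass the test. TRBV7-4 was at 0.27 ± 0.32 (log2, SE), and TRBV7-7 was too low to be tested with 32 reads. No test of the difference between family members was made.

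TRGV5 was the segment with the lowest fold change. It was at 5.02, 1.62 and 2.06 CPM with scrambled siRNA, at 1.33, 1.29 and 1.57 with s46 and at 0.786, 1.24 and 0.998 with s47. All 6 siRNA libraries lay below all 3 scrambled libraries, but scrambled replicate 1 lay far above the other scrambled libraries, and the margin between scrambled replicate 2 and the highest siRNA library was small. The log2 fold change was -1.27 ± 0.33 (SE), with an edgeR adjusted p of 0.119 that did not pass the threshold. Without scrambled replicate 1 the log2 fold change was -0.62 ± 0.28 (SE; edgeR adjusted p 0.554). DESeq2 gave it an adjusted p of 0.02 with all 9 libraries. Without scrambled replicate 2 the edgeR adjusted p was 0.0218. At this gene 663 reads lay on the opposite strand against 430 on the sense strand.

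**Figure D2:**
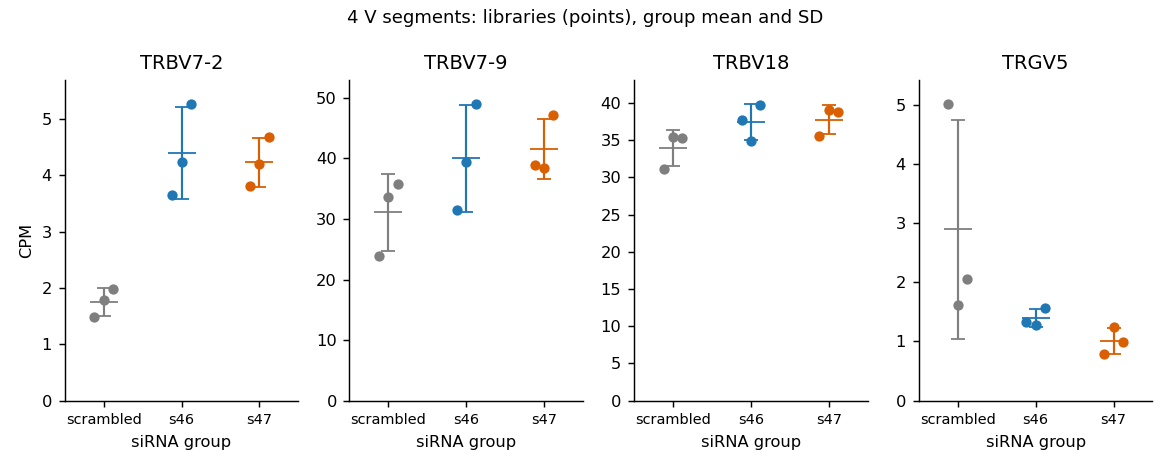
CPM (linear axis from 0) of TRBV7-2, TRBV7-9, TRBV18 and TRGV5 by siRNA group, with libraries as points and group means and SD as bars. TRBV7-2 shows no overlap between the scrambled libraries, at 1.48 to 1.98 CPM, and the siRNA libraries, at 3.66 to 5.28, while TRGV5 has 1 scrambled library at 5.02 CPM far above the other 8.

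D segments, which add bases between V and J in the beta and delta chains, had no sense reads. The 4 annotated ones (1 in TRB and 3 in TRD) had 0 reads in 256198703 sense gene reads, which allows a level of up to 0.0117 CPM each, a limit that covers counting error only. On the opposite strand TRDD1 had 59 reads and TRDD2 had 30. D segments are much shorter than a read, which limits what can be counted over them.

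J segments were few, and each locus had its own pattern. In TRD, TRDJ4, TRDJ2 and TRDJ3 all had reads, with 27.0%, 33.0% and 39.99% of the J reads of the locus, while TRDJ1 had 0. In TRB, the first J cluster held 29 reads over 6 segments and the second held 1632 over 8. TRBJ2-2 held 48.0% of TRB J reads, TRBJ2-6 20.9% and TRBJ2-2P 19.8%. In TRG, TRGJ2 held 78.2% and TRGJ1 21.8%. In TRA, none of the 56 annotated J segments was a member: together they had 19 reads, at most 3 each, and 43 were at 0. The J segments that carried most reads are shown with TRDJ1, which carried none, on the coding strand from GENCODE 29. Capitals mark the codons of the Phe/Trp-Gly-X-Gly motif that J segments contribute to the receptor.
TRDJ1: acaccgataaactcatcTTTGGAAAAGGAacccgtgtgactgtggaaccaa
TRDJ2: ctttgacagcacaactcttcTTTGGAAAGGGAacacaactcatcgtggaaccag
TRDJ3: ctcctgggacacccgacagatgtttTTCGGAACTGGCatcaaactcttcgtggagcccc
TRDJ4: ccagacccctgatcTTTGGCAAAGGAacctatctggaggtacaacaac
TRBJ2-2: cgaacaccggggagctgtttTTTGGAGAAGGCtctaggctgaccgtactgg
TRBJ2-2P: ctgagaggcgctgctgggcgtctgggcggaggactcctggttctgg
TRBJ2-6: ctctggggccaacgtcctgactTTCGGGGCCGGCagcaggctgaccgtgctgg
TRGJ1: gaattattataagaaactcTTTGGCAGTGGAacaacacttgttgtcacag
TRGJ2: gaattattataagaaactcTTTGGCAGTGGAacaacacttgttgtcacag
The motif, searched as codons on the coding strand, stands in 10 of the 11 J members and in 73 of the 79 annotated J segments (92.4%). The member that lacks it is TRBJ2-2P. TRGJ1 and TRGJ2 are identical over their 50 bases, so their separate counts rest on the bases that flank them in a read. TRDJ1 to TRDJ4 lie on the plus strand at chr14:22450089-22450139, chr14:22456689-22456742, chr14:22459098-22459156 and chr14:22455249-22455296. TRBJ2-2, TRBJ2-2P and TRBJ2-6 lie at chr7:142796560-142796610, chr7:142796697-142796742 and chr7:142797239-142797291, and TRGJ1 and TRGJ2 lie on the minus strand at chr7:38269491-38269540 and chr7:38253380-38253429.

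None of the 9 tested J segments passed the edgeR test, and none had an unadjusted p under 0.05. TRDJ3 was at 6.86, 7.92 and 7.89 CPM with scrambled siRNA, at 8.58, 9.46 and 7.69 with s46 and at 9.25, 9.16 and 7.82 with s47, and its log2 fold change was 0.19 ± 0.15 (SE). TRDJ4, which precedes it on the chromosome, was at 6.18, 5.70 and 6.87 CPM with scrambled siRNA, at 5.87, 4.76 and 5.40 with s46 and at 5.02, 6.17 and 4.76 with s47, and its log2 fold change was -0.23 ± 0.16 (SE). TRDJ2 ranged from 4.62 CPM in scrambled replicate 1 to 7.99. TRBJ2-2P had the lowest fold change of TRB, -0.46 ± 0.26 (SE; edgeR adjusted p 0.361), and was at 1.66, 1.42 and 1.62 CPM with scrambled siRNA, at 0.839, 1.15 and 1.33 with s46 and at 1.09, 0.923 and 1.46 with s47. TRGJ1 had 102 reads, with 0 in scrambled replicate 1, and a log2 fold change of 0.52 ± 0.64 (SE).

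Across loci and classes, 31 of the 57 members had enough reads to be tested. The other 26 had 10 to 66 reads and mean levels of at most 0.263 CPM. Of the 31, 1 was called for both siRNAs together (TRBV7-2, higher), beside 0.566% of all 16072 genes tested. With s46 alone and with s47 alone 1 was called, again TRBV7-2, beside 0.174% and 0.33% of all genes. Both comparisons use the same scrambled libraries. Between s46 and s47, edgeR called 0 segments and 0.0% of all genes, where 113 genes had an unadjusted p under 0.05 and DESeq2 also called 0 genes. At an unadjusted p under 0.05 for both siRNAs together, 4 of 31 segments (TRBV7-2, TRGV5, TRBV7-9 and TRBV5-4) passed, a share below the 17.8% of all genes. Groups did not overlap for 1 higher segment (TRBV7-2, beside 4.47% of genes) and 1 lower segment (TRGV5, beside 3.65% of genes). A count of 1 in 31 says little about the segments as a group.

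Fold changes above 0 were most frequent in TRB. Of 31 segments, 20 had a log2 fold change above 0, with a median of 0.15, against 46.5% of all genes and a median of -0.03. In TRB, 12 of 15 lay above 0, among them all 9 tested V segments, with a median of 0.27. The medians were 0.13 in TRD (4 of 6 above 0), -0.0021 in TRG (3 of 7) and -0.07 in TRA (1 of 3). Without scrambled replicate 1 only 12 of the 31 lay above 0: 10 of 15 in TRB, 2 of 6 in TRD and 0 in TRG and TRA. The median of all 31 was then -0.03, that of TRB was 0.15, that of TRD -0.04, that of TRG -0.16 and that of TRA -0.30. TRBV13, with 60 reads, was at -0.03 ± 0.71 (SE) without that library, so not all 9 tested TRBV segments stayed above 0.

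**Figure D3:**
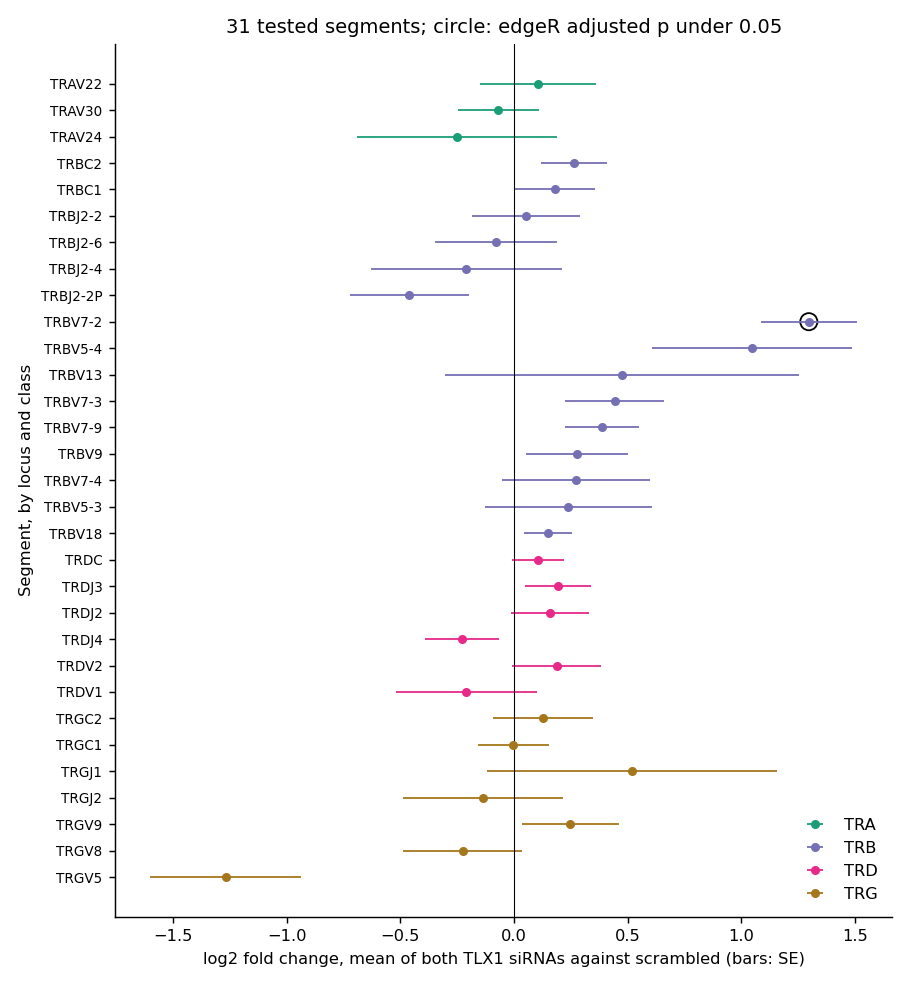
Log2 fold change of the 31 tested segments for both siRNAs together against scrambled (points, bars show the SE), coloured by locus. TRBV7-2, circled, at 1.30 is the only one past the threshold, all 9 TRBV segments lie right of 0, and TRGV5 lies lowest at -1.27.

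Sums over the members of each locus are described here with no test. TRB summed to 195 ± 27.6 CPM with scrambled siRNA, 232 ± 31.2 with s46 and 238 ± 25.6 with s47 (SD, n = 3 each), a log2 ratio of 0.27 for the siRNA mean. Its V segments gave 66.4, 77.8 and 81.1 CPM with scrambled siRNA and 81.8 to 104.5 in the 6 siRNA libraries. These ranges did not overlap, but the margin was small. The V sum includes TRBV7-2, which was named from these same data. TRBV7-2 was at 1.98 CPM in scrambled replicate 3, the highest scrambled V sum. It was at 3.66 CPM in s46 replicate 1, the lowest siRNA V sum. Between these libraries TRBV7-2 differed by more than the V sums did, so without TRBV7-2 the ranges of the V sum overlap. Between libraries of the same number the log2 ratio of the V sum was 0.37, 0.22 and 0.36, and the TRB J segments together gave -0.11. TRG summed to 339, 720.3 and 682 CPM with scrambled siRNA against 538 to 724 with the siRNAs, with a log2 ratio of 0.12 that became -0.15 without scrambled replicate 1. TRD summed to 503 ± 64.6, 540.2 ± 30.1 and 539.9 ± 43.4 CPM (SD, n = 3 each), and TRA to 24.1 ± 8.44, 22.4 ± 2.55 and 24.8 ± 2.41 (SD, n = 3 each).

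**Figure D4:**
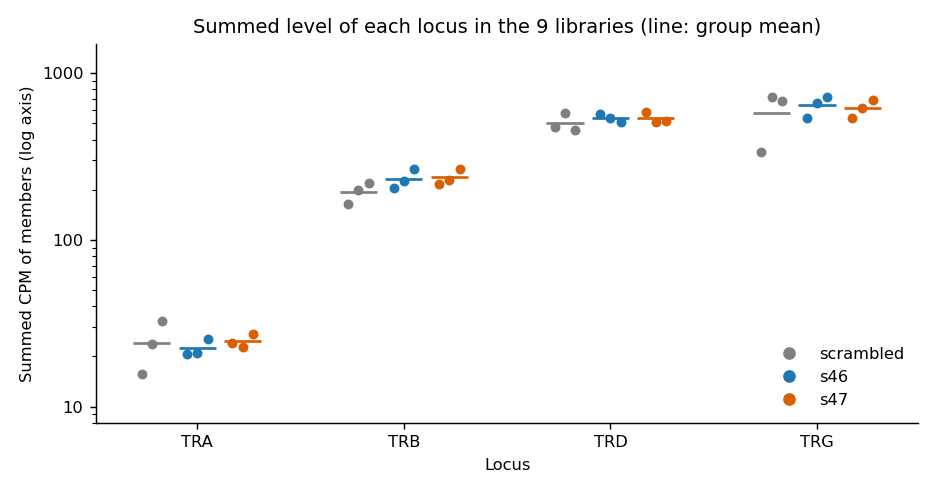
Summed CPM (log axis) of the members of each locus in the 9 libraries (points) with group means (lines). TRG and TRD lie highest and TRA lowest in every library, and scrambled replicate 1, at 339 CPM, is the lowest TRG library.

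Reads on the strand opposite to a segment were counted separately. At 11 of the 57 members they outnumbered the sense reads, 7 of these in TRB, 3 in TRG and 1 in TRD. TRGV3 had 2610 opposite-strand reads against 44 sense reads, and TRGV4 had 2045 against 15. TRDV2 had 2803 against 3215. The largest counts stood at TRGV1 and TRGV2, which are no members with 8 and 5 sense reads, at 3017 and 2975. Opposite-strand levels at TRGV1 were 18.7 ± 9.96 CPM with scrambled siRNA, 9.90 ± 0.58 with s46 and 8.38 ± 1.84 with s47 (SD, n = 3 each), with scrambled libraries at 9.37 to 29.2 CPM overlapping the siRNA libraries at 6.89 to 10.6. At TRGV2 the scrambled libraries were at 24.1, 10.8 and 17.5 CPM and the siRNA libraries at 7.86 to 10.4, with no overlap but a small margin. At TRGV4 the scrambled libraries were at 13.8, 8.60 and 10.9 CPM and the siRNA libraries at 5.62 to 8.05, also with no overlap. At TRGV3 the ranges, 8.02 to 22.1 and 7.30 to 9.64 CPM, overlapped. Scrambled replicate 1 was the highest library at all 4 segments, and these opposite-strand differences were not tested. The share of all genes without overlap on the opposite strand is not given here, so the lack of overlap has no background beside it. The sense exons of TRDC overlap an annotated gene on the opposite strand. Counted without strand TRDC had 71242 reads, fewer than its sense count.

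**Figure D5:**
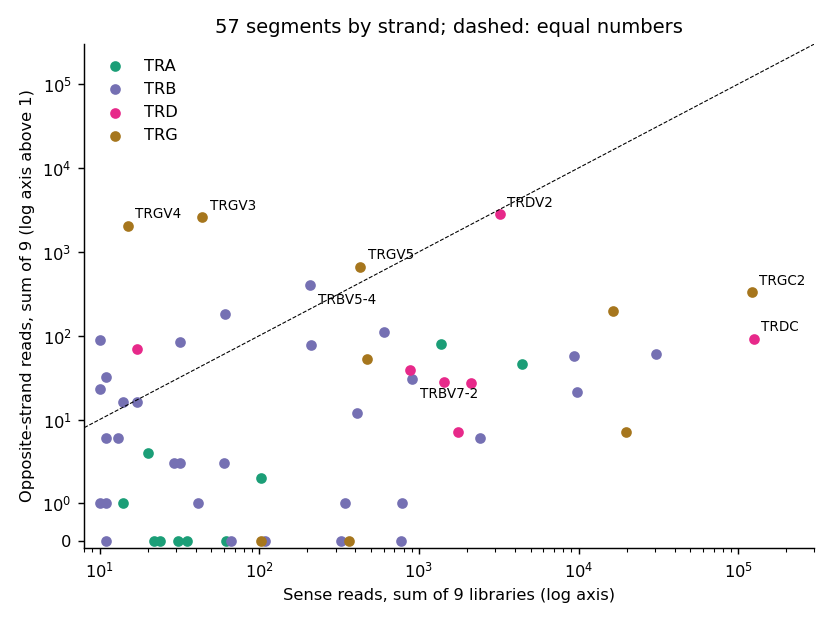
Sense reads (log axis) against opposite-strand reads (log axis above 1) of the 57 members, summed over 9 libraries and coloured by locus, with a dashed line at equal numbers. TRDC and TRGC2 lie far below the line and TRGV3 and TRGV4 far above it.

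The genes that build and carry the receptor were read from a list of 15: the CD3 subunits CD3D, CD3E, CD3G and CD247, the pre-alpha chain PTCRA, the recombinase genes RAG1 and RAG2, the terminal transferase DNTT and 7 genes of DNA end joining. All 15 were tested, 2 were called higher and 0 lower, beside 0.566% of all genes, and the median log2 fold change was 0.25. Of the 15, 11 had a log2 fold change above 0 and 4 below it. At an unadjusted p under 0.05, 8 of the 15 passed, beside 17.8% of all genes, and CD3E among them was lower with the siRNAs. With the replicate number as a block, 4 were called higher (DNTT, LIG4, RAG1 and RAG2), beside 222 of all 16072 genes called in either direction. The list was written with earlier results of these data known, so these counts are a description only. DNTT, which adds bases at the joins, was at 11.6, 7.82 and 10.02 CPM with scrambled siRNA, at 29.9, 16.5 and 23.8 with s46 and at 36.0, 21.8 and 32.9 with s47, a log2 fold change of 1.44 ± 0.22 (SE; edgeR adjusted p 0.0118). LIG4, the ligase that closes the joins, was at 46.9, 58.4 and 55.2 CPM with scrambled siRNA and at 70.8 to 94.7 in the siRNA libraries, a log2 fold change of 0.63 ± 0.12 (SE; edgeR adjusted p 0.0371). The LIG4 call was lost in 9 of 18 alternatives, and that of DNTT in 1, without scrambled replicate 3. With the siRNAs taken singly, DNTT passed with s47 (edgeR adjusted p 0.0171) but not with s46 (edgeR adjusted p 0.0664). In the fit with the replicate number as a block it also passed with s46 (edgeR adjusted p 0.00357). LIG4 passed with neither s46 nor s47 alone (edgeR adjusted p 0.128 and 0.0798). RAG1 was at 17.0, 30.1 and 37.3 CPM with scrambled siRNA, at 27.5, 61.8 and 91.7 with s46 and at 37.0, 61.4 and 99.9 with s47. Its log2 fold change of 1.17 ± 0.44 (SE) and that of RAG2, 1.24 ± 0.47 (SE), did not pass (edgeR adjusted p 0.242 each). For both genes the s46 and s47 libraries of a number lay nearer to each other than to the scrambled library of that number. Both lay above that scrambled library in all 3 cases. With the replicate number as a block, RAG1 at 1.11 ± 0.12 (SE, edgeR adjusted p 0.00368) and RAG2 at 1.26 ± 0.12 (SE, edgeR adjusted p 0.0024) passed. Both also passed in this blocked fit with s46 alone (edgeR adjusted p 0.0179 and 0.0163). Same-numbered s46 and scrambled libraries deviated together only in part (r 0.28, 0.19 and 0.47 across genes). PTCRA stayed at or below 0.532 CPM. CD3D was at 297 ± 58.5 CPM with scrambled siRNA and 381 ± 14.2 and 384 ± 16.1 with the siRNAs (SD, n = 3 each), which did not pass (edgeR adjusted p 0.208). CD3E went the other way, at 133 ± 51.7 CPM with scrambled siRNA and 96.2 ± 2.07 and 100.2 ± 5.13 with the siRNAs (SD, n = 3 each). Its log2 fold change was -0.43 ± 0.17 (SE; edgeR adjusted p 0.241), with scrambled replicate 1 the highest library at 192 CPM. The log2 fold change of CD3G was 0.25 and that of CD247 was -0.11.

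Of 9 transcription factors known to act at T-cell receptor enhancers (ETS1, RUNX1, GATA3, TCF3, TCF12, TCF7, LEF1, BCL11B and MYB), edgeR called 0. Their median log2 fold change was 0.05. At an unadjusted edgeR p under 0.05, 3 passed (GATA3, TCF12 and MYB), beside 17.8% of all genes. DESeq2 called 2, GATA3 and MYB, beside 457 of all 16072 genes. MYB was at 326, 461 and 466 CPM with scrambled siRNA and 592 to 672 in the siRNA libraries, a log2 fold change of 0.60 ± 0.13 (SE; edgeR adjusted p 0.0566) that passed with the replicate number as a block (edgeR adjusted p 0.0449). GATA3 was at 100.6, 41.0 and 45.5 CPM with scrambled siRNA and 32.4 to 43.6 with the siRNAs, a log2 fold change of -0.75 ± 0.24 (SE; edgeR adjusted p 0.193) in which scrambled replicate 1 was far the highest. Without that library it was -0.23 ± 0.12 (SE; edgeR adjusted p 0.647). Of 10 genes in or next to the loci, 9 were matched in the files and 3 had enough reads to be tested; TARP, inside TRG, was not matched and is not analysed here. EPHB6 beyond TRB had a log2 fold change of 0.35, DAD1 beyond TRA 0.19 and STARD3NL beyond TRG 0.08, and 0 of these 3 were called by edgeR or DESeq2, with EPHB6 at an unadjusted p under 0.05, while PRSS1, PRSS2, ABHD4 and OR10G3 were at 0 in all 9 libraries. AMPH and TRPV6 had 7 and 27 sense reads, against 3063 and 1120 on the opposite strand.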

How the data were processed

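Total RNA was sequenced in 9 ALL-SIL libraries with a stranded, ribosome-depleted kit, per the labels' protocols. The deposited files hold raw read counts per gene in 3 columns (unstranded and each strand), with GRCh38 as the build per the submitters' processing notes; the aligner and the counting tool were not given in the sources used here. Gene types, symbols and coordinates were taken from GENCODE 29 by gene ID without version, which matched 57492 of 58096 IDs; the versions of TRAC, TRBC2 and TRDC differ. Rows that name no gene were left out. Members and gene lists were chosen with earlier results of these data known. The text names all C segments, TRBV7-2, called members, up to 4 highest members per locus and class, the largest and smallest fold change per locus, and list genes called or up to 4 not called; any other gene named was chosen after its values were seen.

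Sense counts were filtered with filterByExpr (minimum count 10, leaving 16072 genes), TMM-scaled and put through the quasi-likelihood F test of edgeR 4.0.16 with robust dispersions (R 4.3.3), with all 9 libraries in 1 fit, group as the only term, and Benjamini-Hochberg adjustment at 0.05. Sums and shares were described without a test. Same-numbered libraries of s46 and scrambled deviated together (r 0.28, 0.19 and 0.47 across genes), as did those of s46 and s47, but of s47 and scrambled only 2 of 3 pairs did (0.15, -0.06 and 0.43). The reported fit has no block, and blocked values stand beside the calls they change.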

Additional observations from a re-analysis of the deposited data

Results flagged for a closer look

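Reads on the strand opposite to TRBV5-4, a beta V segment, lie outside the sense counts that were tested, and they were higher in the siRNA libraries than in the scrambled ones. Their mean level over the 6 siRNA libraries was 1.91 CPM. The scrambled libraries were at 0.538, 0.742 and 0.955 CPM, those of s46 at 1.91, 1.36 and 2.11, and those of s47 at 2.17, 1.27 and 2.63, so the groups did not overlap. In all, 396 reads lay on the opposite strand and 209 on the sense strand. The difference was not tested, and the share of all genes without overlap on the opposite strand is not given here. Sense reads of TRBV5-4 had a log2 fold change of 1.05 ± 0.44 (SE; edgeR adjusted p 0.256) and overlapping groups. TRBV5-4 shares 10.3% of its 40-base words with other TRBV5 segments.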

How the results depend on the processing

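TRBV7-2 kept its direction for both siRNAs together in all 18 alternatives (log2 fold change 1.197 to 1.40) and its call in all but the fit without scrambled replicate 3. For both siRNAs together, 2 segments were called by DESeq2 and 2 with no filter on low counts (TRBV7-2 and TRGV5 each time), and 0 to 2 when a library was left out. For s46, 0 were called with library totals, upper-quartile scaling, a minimum count of 30, unstranded counts, only the groups compared, and without the 3 libraries numbered 1, and 0 to 1 when a library was left out. For s47, 0 were called with library totals, upper-quartile scaling, unstranded counts, only the groups compared, and without the 3 libraries numbered 1, 2 by DESeq2 and with no filter, and 0 to 2 when a library was left out. Leaving out the libraries numbered 1 was chosen after seeing the data. TRGV5 was -0.53 without those libraries (adjusted p 0.833). With the replicate number as a block, TRBV7-2 stayed the 1 segment called (log2 1.30, adjusted p 0.00844), and all-gene calls rose from 91 to 222 for both siRNAs, 28 to 74 for s46 and 53 to 125 for s47. DESeq2 called 457, 199 and 204 genes and no filter 876, 384 and 432; leaving out a library gave 22 to 1650, 4 to 225 and 4 to 275, with 1650 without scrambled replicate 2 and 22 without scrambled replicate 3. With only the groups compared, s46 gave 6 and s47 gave 8, library totals gave 14 and upper-quartile scaling 18 for s46, and s47 gave 33 without the libraries numbered 1.

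Of 552 comparisons of tested segments with an alternative, 510 kept direction and side of the threshold and 38 changed direction, over 15 segments, none of them called in the reported fit; the cause was not tested. TRGC1 (reported -0.0021) was 0.0067 with RLE, 0.0069 with DESeq2, 0.019 with no filter, 0.030 unstranded and 0.020 with the replicate block. TRBJ2-2 was -0.014 with library totals. Without the libraries numbered 1, TRGC2 was -0.051, TRGJ1 -0.086, TRBV13 -0.35, TRBJ2-6 0.0057, TRAV22 -0.036, TRDV2 -0.068 and TRDJ2 -0.0064. When a library was left out, the ranges were TRGC1 -0.20 to 0.17, TRBJ2-2 -0.077 to 0.36, TRGC2 -0.16 to 0.33, TRGJ1 -0.0054 to 1.15, TRGV9 -0.036 to 0.47, TRBV13 -0.032 to 1.64, TRAV22 -0.10 to 0.50, TRDV2 -0.053 to 0.35, TRDJ2 -0.020 to 0.28, TRGJ2 -0.52 to 0.20, TRDV1 -0.53 to 0.014, TRBJ2-4 -0.39 to 0.11, TRBJ2-6 -0.17 to 0.093, TRAV24 -0.45 to 0.14 and TRAV30 -0.30 to 0.17. TRBV7-2 between s46 and s47 was -0.10 to 0.16. Depth limits the 26 untested segments, for which a change could not be seen.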

Other observations

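Pseudogene segments lie outside the rule that chose the members. TRGV7, a gamma V pseudogene, had 48150 sense reads, more than any V member, at 183 ± 52.6 CPM with scrambled siRNA, 190 ± 25.9 with s46 and 185 ± 18.0 with s47 (SD, n = 3 each). TRGV5P, the pseudogene beside TRGV5, was at 8.16, 2.02 and 2.72 CPM with scrambled siRNA and at 1.22 to 1.93 in the siRNA libraries. Its log2 fold change was -1.53 (edgeR adjusted p 0.0889), and -0.68 (edgeR adjusted p 0.423) without scrambled replicate 1, its highest library; DESeq2 gave an adjusted p of 0.00422 with all 9 libraries.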
